A study of Mus musculus with 6 samples.

Results

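Midbrain dopaminergic neurons of adult mice were profiled by RNA sequencing after injection of an adeno-associated virus of serotype 1 (AAV1), and the baseline described here is that of the 3 control libraries of the series' 6 libraries. The control virus carried a scrambled short hairpin RNA and EGFP, a green fluorescent protein that shows which cells took up the virus. The other 3 libraries received a hairpin against Satb1, and their values are not used. All libraries came from 4-month-old Dat bacTRAP mice on a C57BL/6 background. The labels give 3 mice for the whole study, and they do not say which library came from which mouse. In a Dat bacTRAP line, as background, a tagged ribosomal protein is made under the control of the dopamine transporter gene, so that ribosome-bound RNA of dopaminergic neurons can be pulled out of whole tissue. The labels do not say whether such a pull-down was done, and they describe dissection of the substantia nigra pars compacta (SNpc) and the ventral tegmental area (VTA) from 1 mm coronal slices without saying which library holds which region. The spread between libraries is given throughout as the standard deviation (SD) over n = 3 and may be technical. In bulk RNA, fewer cells of a type and less RNA per cell cannot be told apart.

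The control libraries held 170351145, 162101571 and 160792736 counts assigned to genes, so that a single count was worth 0.00587 to 0.00622 CPM, counts per 1000000 counts of the library. Each library was scaled to CPM by its own total. All 23079 genes of the deposited table were examined. A gene was called expressed when it reached at least 1 CPM in each of the 3 libraries, which held for 12871 genes, or 55.8% of the table. Members of families and lists were ordered after division by exon length, as CPM per kilobase (kb), whose median over expressed genes was 7.77. Some places, levels and all list sums are also given in CPM, which is not corrected for exon length. Neighbours in an order were called separate only where the lowest library of the higher gene lay above the highest library of the lower gene. By class of exon length, control 1 was the highest library for 25% to 65.9% of expressed genes, control 2 for 22% to 31.6% and control 3 for 12.1% to 43.4%. The share of all genes lowest in each library was not counted, so counts of list members lowest in a library have no such comparison.

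Dopaminergic neurons of the ventral midbrain project to the striatum and the cortex and take part in movement, motivation and learning. They convert tyrosine to L-DOPA with tyrosine hydroxylase and then to dopamine with aromatic amino acid decarboxylase. The vesicular monoamine transporter loads dopamine into vesicles, and the dopamine transporter takes it back up after release. Many of these neurons fire spontaneously, and their own D2 receptors slow that firing when dopamine is present.

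The 5 genes that mark these neurons were all among the most abundant of the libraries. The promoter sequences of Th (tyrosine hydroxylase), Slc18a2 (the vesicular transporter) and Slc6a3 (the dopamine transporter) are shown because these genes define the cells by synthesis, storage and reuptake. They are RefSeq sequences of GRCm38.p6, each 254 bases long, from 250 bases upstream of the annotated transcript start onward, written in the direction of transcription. They lie at chr7:142899992-142900245 on the minus strand for Th, chr19:59260628-59260881 on the plus strand for Slc18a2 and chr13:73536497-73536750 on the plus strand for Slc6a3. Capitals mark the cyclic AMP response element TGACGTCA, the GC box GGGCGG and the E-box CACGTG, on either strand.
Th: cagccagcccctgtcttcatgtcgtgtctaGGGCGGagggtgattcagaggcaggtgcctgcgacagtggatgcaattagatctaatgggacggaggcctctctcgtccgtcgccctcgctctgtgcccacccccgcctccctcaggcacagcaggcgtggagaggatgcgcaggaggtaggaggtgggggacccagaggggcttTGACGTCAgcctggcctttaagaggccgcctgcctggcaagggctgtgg
Slc18a2: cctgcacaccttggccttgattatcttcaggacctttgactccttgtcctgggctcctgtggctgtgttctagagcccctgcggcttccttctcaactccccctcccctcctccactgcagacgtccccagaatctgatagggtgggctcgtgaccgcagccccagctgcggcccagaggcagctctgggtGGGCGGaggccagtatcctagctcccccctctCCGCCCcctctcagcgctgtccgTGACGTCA
Slc6a3: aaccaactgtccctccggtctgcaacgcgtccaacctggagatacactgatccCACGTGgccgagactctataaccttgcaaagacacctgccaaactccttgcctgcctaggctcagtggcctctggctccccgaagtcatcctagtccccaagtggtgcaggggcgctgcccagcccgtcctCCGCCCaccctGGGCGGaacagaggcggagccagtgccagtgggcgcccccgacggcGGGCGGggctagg
The full cyclic AMP response element stood at position -45 from the start of Th and at position -4 from that of Slc18a2. The window of Slc6a3 did not hold it, and held an E-box at -197 and GC boxes at -66, -55 and -9. None of these 3 motifs overlapped another in the sequences shown.

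Of the 20 genes in the lists for dopamine synthesis and for dopamine storage, reuptake and breakdown, 16 had windows in the RefSeq table, which run from 250 bases before to 50 bases after a start. The cyclic AMP response element was found in 2 of the 16, the GC box in 12, the E-box in 1 and the TATA box TATAAA in 4, including Ddc and Gch1. Over all 32851 windows of the same length the element TGACGTCA was found in 1.79%. These include windows of genes without a row in the deposited table, and a gene can have several, so shares of windows are not shares of genes. It was found in 3.01% of the windows of expressed genes, in 1.17% of those of genes not called expressed, and in 18 of the 217 windows (8.29%) of the 200 genes with the highest CPM. The GC box was found in 61.7% of windows of expressed genes against 23.5% for the others, and TATAAA in 6.95% against 20.7%. These are matches of letters, and binding was not measured.

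Th stood at 3036, 3401 and 3481 CPM in the 3 control libraries (mean 3306 ± 237). In the GENCODE M21 annotation of GRCm38, its gene model spans 142892752 to 142931128 on chromosome 7. That model reaches upstream of the RefSeq start used for the sequence above, which therefore lies inside it. Among all genes it held place 12 by CPM and place 16 by CPM per kb, at 1808 ± 130 CPM per kb. Its libraries were close together, with control 1 the lowest.

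Ddc, which encodes aromatic amino acid decarboxylase on chromosome 11 (11814101 to 11898144), stood at 2679, 2683 and 2681 CPM. The libraries differed by less than 1 percent of their mean, the narrowest spread in the dopamine lists. Per length Ddc reached 1283 CPM per kb, below every library of Th, and Th exceeded it 1.29-, 1.45- and 1.48-fold per kb in the 3 libraries. Both genes of the pathway from tyrosine to dopamine thus lay above 1000 CPM per kb in each library.

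The cofactor of tyrosine hydroxylase, tetrahydrobiopterin, is made by Gch1, Pts and Spr and is recycled by Pcbd1 and Qdpr. The recycling genes Pcbd1 and Qdpr stood above the genes of new synthesis per length. Pcbd1 reached 210 ± 22 CPM per kb and Qdpr 136 ± 9.4 CPM per kb. Gch1, the rate-limiting enzyme, reached 63.3 ± 3.0 CPM per kb, from 171, 185 and 170 CPM. Pts followed at 39.8 ± 4.8 CPM per kb and Spr at 19.7 CPM per kb, and each was separate from the next. Gchfr, which encodes the feedback regulator of Gch1, was the lowest of the 9 genes of the list at 1.25, 3.24 and 1.21 CPM, and control 2 alone was high. All 9 genes of dopamine synthesis were expressed.

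**Figure D1:**
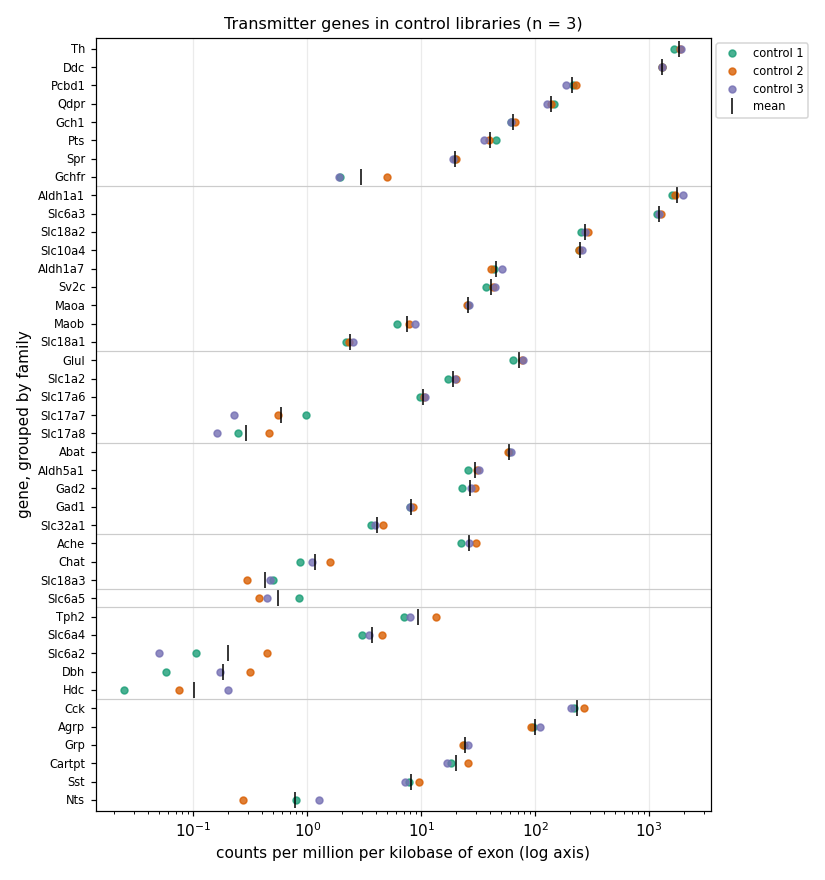
Level of transmitter genes in the control libraries, in CPM per kilobase of exon on a log axis, with 1 point per library and a bar at the mean. Each block holds the genes of 1 list that the text names, ordered by mean, with the list of granins and peptide processing left out. Th, Ddc, Aldh1a1 and Slc6a3 lie above 1000 CPM per kb in every library, and Slc17a6, Gad2, Chat, Slc6a5 and Tph2 lie below 40 CPM per kb.

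Genes of storage and reuptake were also abundant. Aldh1a1 is an aldehyde dehydrogenase that clears the dopamine aldehyde and marks a ventral group of nigral neurons. It stood at 5004, 5328 and 6168 CPM, place 3 of all genes, and at 1753 ± 191 CPM per kb, a range that overlapped that of Th. It lies on chromosome 19 (20492715 to 20643465). Its close relative Aldh1a7 stood at 93.3 ± 11.6 CPM, and Aldh1a1 exceeded it 37.0-, 41.5- and 38.2-fold per kb. Reads from such similar genes may have been assigned to either, so the lower value is uncertain.

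Slc6a3 stood at 4074, 4399 and 4228 CPM, place 7 of all genes. Slc18a2 stood at 952, 1093 and 1027 CPM, with its gene model at 59260896 to 59296012 on chromosome 19. Per kb the dopamine transporter exceeded the vesicular transporter 4.69-, 4.41- and 4.51-fold, a ratio that was stable over the libraries. Slc10a4, a vesicle protein of monoaminergic and cholinergic neurons, reached 247 ± 7.9 CPM per kb, and its library range overlapped that of Slc18a2 at 271 ± 19 CPM per kb. Sv2c, a synaptic vesicle glycoprotein of basal ganglia neurons, reached 40.9 ± 3.9 CPM per kb.

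Of the genes of dopamine breakdown, Maoa exceeded Maob per kb in each library, by 4.21-, 3.25- and 2.99-fold. Maoa stood at 107, 105 and 109 CPM and Maob at 14.7, 18.6 and 21.1 CPM. Slc18a1, the vesicular monoamine transporter of endocrine cells, was the lowest per length of the 11 genes, at 2.35 ± 0.18 CPM per kb. All 11 genes of this list were expressed.

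The vesicular transporter genes of glutamate release stood far below that of monoamines. The glutamate transporter of midbrain and subcortical neurons, Slc17a6, stood at 40.5, 44.0 and 44.3 CPM, and Slc18a2 exceeded it 25.7-, 27.1- and 25.3-fold per kb. The cortical form Slc17a7 (2.85, 1.60 and 0.665 CPM) and Slc17a8 (1.15, 2.19 and 0.765 CPM) each fell under 1 CPM in control 3.

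GABA is made by Gad1 and Gad2 and loaded into vesicles by Slc32a1. Gad2 stood at 131, 170.3 and 158 CPM, Gad1 at 28.1, 29.7 and 28.2 CPM, and Slc32a1 at 10.1, 12.8 and 11.1 CPM. Gad2 exceeded Gad1 2.87- to 3.53-fold per kb, and Slc18a2 exceeded Slc32a1 63.1- to 70.0-fold per kb. Abat, which breaks GABA down, led the GABA list at 59.0 ± 1.9 CPM per kb, and Aldh5a1, of the same breakdown pathway, stood at 29.5 CPM per kb. Control 1 was the lowest library for 6 of the 7 GABA genes whose mean reached 1 CPM, and the share of all genes lowest in control 1 was not counted.

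Genes of acetylcholine and glycine release were near the limit used to call expression. Chat, the acetylcholine-making enzyme, stood at 2.45, 4.48 and 3.15 CPM and the vesicular transporter Slc18a3 at 1.20, 0.716 and 1.13 CPM. Ache, which degrades acetylcholine outside cells, was higher at 48.7, 65.5 and 57.2 CPM. The glycine transporter of glycinergic neurons, Slc6a5, reached 2.10 CPM in control 1 and 0.925 CPM in control 2.

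Genes that make or carry serotonin were low, and control 2 stood apart. Tph2, the serotonin-making enzyme of neurons, stood at 18.4, 35.1 and 20.7 CPM, and the serotonin transporter Slc6a4 stood at 8.22, 12.3 and 9.48 CPM. Th exceeded Tph2 236-, 139- and 241-fold per kb. The noradrenaline genes Slc6a2 (0.646, 2.74 and 0.311 CPM) and Dbh (0.147, 0.796 and 0.435 CPM) were also highest in control 2, and Hdc, the histamine-making enzyme, was at most 0.485 CPM. Control 2 thus held the highest value of all 4 genes of this list whose mean reached 1 CPM. It was the highest for 22% to 31.6% of expressed genes by class of exon length. The summed level of a list of 9 marker genes of serotonin and noradrenaline neurons was 36.5, 62.5 and 36.9 CPM in the 3 libraries, and its part in the other values of control 2 was not tested.

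Of 32 neuropeptide genes, 13 (40.6%) were expressed, against 55.8% of all genes. Cck, the cholecystokinin gene that many VTA neurons co-express with dopamine, led at 188, 226 and 177 CPM, or 231 ± 30 CPM per kb. Agrp, known from feeding neurons of the hypothalamus, was next at 63.0, 61.0 and 72.3 CPM, and was separate from Cck above it and from Grp below it. The exons of Agrp overlap the predicted gene Gm5914, so its reads are uncertain. Grp reached 24.2 CPM per kb, Cartpt 20.3 CPM per kb and Sst 8.18 CPM per kb, and the ranges of Grp and Cartpt overlapped. Nts, the neurotensin gene, stood at 0.998, 0.339 and 1.57 CPM. The 11 genes of granins and peptide processing were all expressed, led by the carboxypeptidase Cpe at 297 ± 10 CPM per kb and the granin Scg2 at 200.5 ± 33 CPM per kb.

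Ion channel genes made up 192 rows of the table, and 128 of them (66.7%) were expressed, against 55.8% of all genes. Among the sodium channel pore genes, which carry the action potential upstroke, Scn2a1 led at 195, 190 and 197 CPM, or 22.3 ± 0.41 CPM per kb. It exceeded Scn1a 2.22-, 2.37- and 2.65-fold per kb, and Scn3a and Scn8a followed at 7.22 and 6.31 CPM per kb. Each of the 4 was separate from the next. All 4 auxiliary beta subunit genes were expressed, and Scn2b (68.3 ± 2.1 CPM per kb) and Scn3b (62.5 ± 1.7 CPM per kb) were far above Scn4b (1.80 ± 0.32 CPM per kb).

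Calcium entry through L-type channels contributes to pacemaking in these neurons. Among the calcium channel pore genes, however, the L-type genes Cacna1d (2.41 ± 0.38 CPM per kb) and Cacna1c (1.87 ± 0.20 CPM per kb) were not the leading members. The P/Q-type gene Cacna1a led at 8.91 ± 0.091 CPM per kb, 3.78-, 3.20- and 4.31-fold above Cacna1d. The R-type gene Cacna1e followed at 8.04 ± 0.56 CPM per kb, then the T-type gene Cacna1g and the N-type gene Cacna1b at 4.16 and 4.08 CPM per kb, whose ranges overlapped. Before division by length Cacna1e was the highest, at 120.0 CPM against 70.6 CPM, since its exons are longer. Of the accessory subunits, Cacnb2, Cacnb3 and Cacnb4 stood at 27.5, 27.0 and 24.9 CPM per kb.

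HCN channels carry the hyperpolarization-activated current, and 4 genes encode them. Hcn3 led at 34.5, 37.4 and 34.5 CPM, and exceeded Hcn2 2.80- to 3.02-fold per kb. Its exons overlap those of Pklr, so the part of its reads that belongs to Pklr is not known. Hcn2 and Hcn4 stood at 3.02 and 1.91 CPM per kb, and the former was separate from the latter. The sodium leak channel Nalcn, which depolarizes neurons toward firing, stood at 43.3, 53.2 and 46.0 CPM, and Unc80, a large protein of the same complex, at 412, 407 and 409 CPM. Per length Unc80 reached 30.1 ± 0.17 CPM per kb and Nalcn 6.67 ± 0.72 CPM per kb.

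Potassium channel genes were led by members of the A-type complex, which delays the next spike. Kcnd3, which encodes the Kv4.3 pore, stood at 414, 431 and 408 CPM and exceeded the next Kv gene, Kcnc2, 3.39-, 3.33- and 3.47-fold per kb. The genes of its partner proteins were also high, with Kcnip1 at 105 ± 5.2, Kcnip4 at 69.5 ± 4.9 and Dpp6 at 19.9 ± 2.6 CPM per kb. Kcnc2, Kcna1 and Kcna2 had overlapping ranges between 12.9 and 18.2 CPM per kb. Kcnd3 overlaps the exons of its antisense gene Kcnd3os.

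Other potassium channel families each had a clear leader. Kcnn3, the SK3 channel that shapes the afterhyperpolarization, stood at 130, 138 and 152 CPM and exceeded Kcnn2 13.1- to 14.2-fold per kb. Kcnj6, the GIRK2 channel through which D2 and GABA-B receptors inhibit the cell, stood at 211, 230 and 219 CPM and exceeded its partner gene Kcnj9 10.6- to 14.9-fold per kb. The ATP-sensitive pore gene Kcnj11 stood at 2.71 ± 0.35 CPM per kb, in a range that overlapped that of Kcnj10. Kcns3 led the silent subunits at 16.9 ± 2.7 CPM per kb and Kcnk1 the tandem-pore family at 12.7 ± 1.6 CPM per kb. Mcoln1, a lysosomal channel, led the TRP family per length, and Trpc6 had the highest CPM of that family (34.5 against 25.1).

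**Figure D2:**
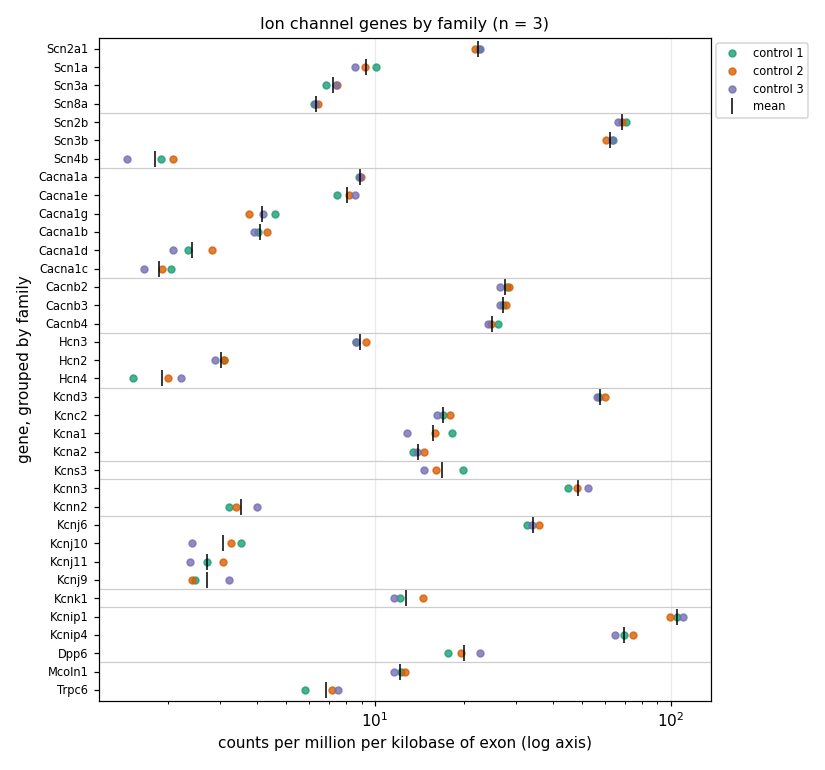
Ion channel genes named in the text, grouped by family, in CPM per kilobase of exon on a log axis, with 1 point per control library and a bar at the mean. Kcnip1, Kcnip4, Scn2b, Scn3b and Kcnd3 lie above 50 CPM per kb in every library, while the HCN genes lie below 10 CPM per kb.

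Receptor genes made up 179 rows, of which 105 (58.7%) were expressed, close to the 55.8% of all genes. Dopamine receptors showed a single expressed member. Drd2 stood at 267, 231 and 264 CPM, or 99.7 ± 7.9 CPM per kb, and the other 4 genes were each under 1 CPM in at least 2 libraries. Drd1a stood at 0.657, 0.901 and 0.808 CPM, Drd3 at 0.646, 0.259 and 0.218 CPM, and Drd5 at 0.247, 1.25 and 0.211 CPM. Drd2 exceeded Drd3 236-fold or more per kb in every library.

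Nicotinic receptor genes held the highest values of any transmitter receptor family. Chrna4 stood at 683, 702 and 744 CPM, or 155 ± 6.8 CPM per kb. Chrna6, whose product is concentrated in catecholaminergic neurons, stood at 221, 244 and 228 CPM and Chrnb3 at 281, 302 and 295 CPM. These 3 genes were separate from each other in the order Chrna4, Chrna6 and Chrnb3, and Chrna6 exceeded Chrnb3 1.22- to 1.28-fold per kb. Chrna5, Chrnb2 and Chrna3 followed at 10.2, 9.40 and 9.01 CPM per kb with overlapping ranges. Of the family's 16 genes, 10 (62.5%) were expressed, near the 55.8% of all genes. Chrm5 was the leading muscarinic receptor, at 18.9, 18.8 and 19.6 CPM, and exceeded Chrm4 6.15- to 10.9-fold per kb.

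Among ionotropic glutamate receptors, 3 of the AMPA genes were level and the NMDA genes were not. The AMPA genes Gria2, Gria4 and Gria3 had means between 11.96 and 12.2 CPM per kb with overlapping ranges, and Gria1 at 9.95 CPM per kb. Their order has no meaning beyond the spread. Grin1, the obligatory NMDA subunit, stood at 61.3, 78.0 and 88.0 CPM, or 17.3 ± 3.1 CPM per kb, with Grin2a at 6.30 and Grin2b at 1.49 CPM per kb. Grik3 led the kainate and delta receptors at 13.8 ± 0.70 CPM per kb. The metabotropic gene Grm5, whose product couples to calcium release, stood at 3.56 CPM per kb.

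Inhibitory receptors were led by Gabbr1, a subunit of the GABA-B receptor. It stood at 404, 451 and 374 CPM and exceeded its partner Gabbr2 4.67-, 5.72- and 4.51-fold per kb. Of 19 GABA-A subunit genes 12 (63.2%) were expressed, near the 55.8% of all genes. Among them were Gabrb2 at 20.8 and Gabra3 at 12.2 CPM per kb. Glrb, the glycine receptor beta subunit that anchors the receptor, exceeded the alpha subunit Glra2 8.34-, 5.90- and 5.20-fold per kb.

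Among peptide receptors Ntsr1, the neurotensin receptor, led at 147, 157 and 163 CPM, and Tacr3, the neurokinin receptor, followed at 82.6, 97.7 and 96.3 CPM. Oprk1 and Oprl1 had overlapping ranges at 16.7 and 16.0 CPM per kb, above Oprm1 at 9.46 CPM per kb, and Oprd1 reached 1 CPM in control 2 only. This order depends on the exon length used, since Oprm1 led the opioid receptors when the longest transcript gave the length. Serotonin receptors were low, with Htr5a and Htr2c level at 4.14 and 4.12 CPM per kb. Of their 14 genes 5 (35.7%) were expressed, against 55.8% of all genes. P2rx6 and P2ry12 led the purine receptors at 9.19 and 7.76 CPM per kb. P2ry12 is also a microglial marker, and the other microglial markers are given with the cell lists.

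Growth factor receptors were led by Ret, the signalling receptor for GDNF family factors, which support dopaminergic neurons. Ret stood at 726, 787 and 791 CPM, or 114 ± 5.4 CPM per kb. Its co-receptors Gfra1, Gfra2 and Gfra4 stood at 14.3, 11.6 and 9.23 CPM per kb with overlapping ranges, and Ret exceeded Gfra1 7.48- to 8.90-fold per kb. Gfra3 had no count in any control library, which allows a level of up to 0.0176 to 0.0187 CPM, counting error only. Erbb4, a neuregulin receptor, was the only expressed gene of the 4 ERBB receptors, at 57.2, 59.2 and 56.0 CPM. Ntrk2, the BDNF receptor, stood at 7.94 ± 0.74 CPM per kb, below Sort1 at 11.9 CPM per kb.

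**Figure D3:**
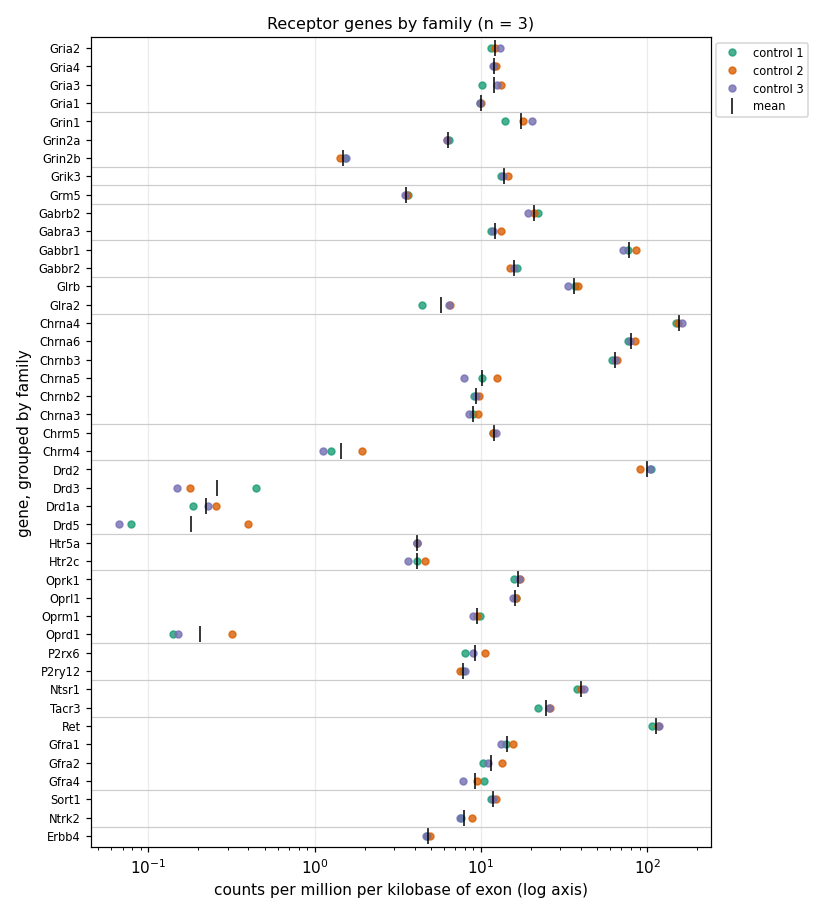
Receptor genes named in the text (Gfra3, with no count, is not drawn), grouped by family, in CPM per kilobase of exon on a log axis, with 1 point per control library and a bar at the mean. Chrna4, Ret and Drd2 lie near or above 90 CPM per kb in every library, and the next dopamine receptors lie below 0.5 CPM per kb.

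Transcription factor families held 353 rows, of which 155 (43.9%) were expressed, a smaller share than the 55.8% of all genes. A list of 20 factors known from midbrain dopaminergic neurons was expressed in full. Nr4a2, the orphan nuclear receptor Nurr1 that maintains Th expression, stood at 261, 296 and 313 CPM, or 77.4 ± 7.0 CPM per kb. En1, which supports the survival of these neurons, stood at 142, 140 and 154 CPM and exceeded En2 6.07- to 6.51-fold per kb. Control 1 was the lowest library for 10 of the 20 genes and control 3 the highest for 10. By class of exon length, control 3 was the highest for 12.1% to 43.4% of expressed genes, and the share lowest in control 1 was not counted.

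Ebf3 followed at 40.2 ± 0.86 CPM per kb and Satb1, the chromatin organizer that the other libraries of the series targeted, at 32.9 ± 2.3 CPM per kb. Satb1 stood at 335, 332 and 296 CPM, with its gene model at 51736187 to 51833290 on chromosome 17. Its range overlapped that of Foxa1. The exons of Satb1 overlap the predicted genes Gm36931 and Gm6934.

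The early determinants Foxa2, Lmx1a, Lmx1b and Pitx3 stood below Satb1 in every library. Foxa1 exceeded Foxa2 2.04-, 2.02- and 1.68-fold per kb, and Lmx1a exceeded Lmx1b 2.82-, 2.56- and 2.31-fold per kb. Pitx3, required for nigral neurons, stood at 14.5, 14.0 and 15.7 CPM, or 10.7 ± 0.64 CPM per kb. Sox6, found in SNpc neurons, stood at 67.2, 63.0 and 80.8 CPM, and Otx2, found in VTA neurons, at 9.13, 11.2 and 9.36 CPM. Each of these genes was well above the limit of expression in every library.

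Other families showed which relatives were present beside these factors. Pbx3, a TALE homeodomain cofactor, stood at 309, 287 and 295 CPM, or 104 ± 3.9 CPM per kb. Thra, a thyroid hormone receptor gene, stood at 92.2 CPM per kb, but its exons overlap those of Nr1d1, at 69.9 CPM per kb. The EBF, BCL11 and ZFHX family and the MEF2, MYT1 and NFI family, of 11 genes each, were expressed in full. Mef2b led the latter at 56.0 CPM per kb, with exons that overlap Borcs8. Hey1, a Notch target, stood at 100.5, 97.7 and 85.0 CPM, and Pou3f2 at 91.4, 104 and 91.0 CPM.

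Several patterning families were nearly silent. None of 39 HOX genes was expressed, and the highest of them per length, Hoxb5, stood at 0.605, 0.197 and 0 CPM. The summed level of the HOX genes was 3.42, 1.40 and 0.554 CPM, highest in control 1. Of 9 PAX genes 2 (22.2%) were expressed, Pax7 and Pax5, both at or below 0.32 CPM per kb. Of 21 factors of neighbouring neurons of the midbrain and hindbrain 4 (19%) were expressed, against 55.8% of all genes. The leading member Gata3 stood at 2.04, 2.41 and 3.08 CPM. Fev, the factor of serotonin neurons, stood at 0.575, 0.611 and 0.174 CPM.

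**Figure D4:**
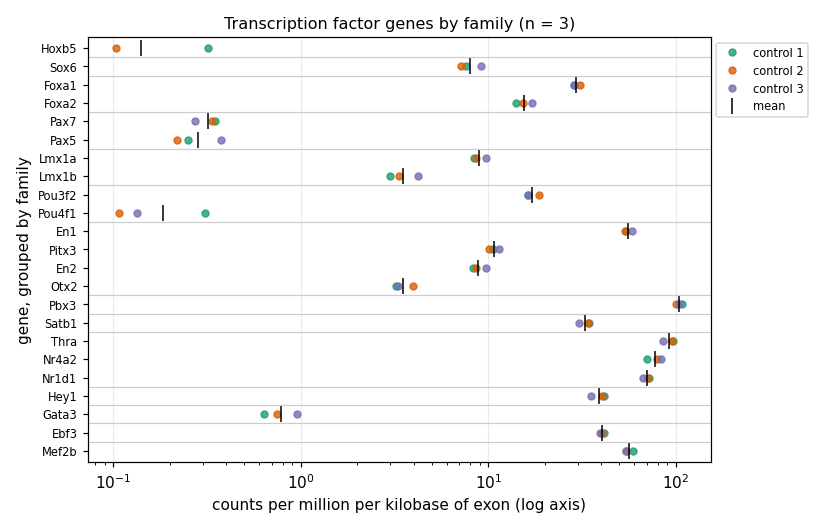
Transcription factor genes named in the text, grouped by family, in CPM per kilobase of exon on a log axis, with 1 point per control library and a bar at the mean; a library at 0 is not drawn. Pbx3 lies above 90 CPM per kb in every library, and the HOX and PAX genes lie below 0.5 CPM per kb.

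Genes enriched in SNpc and in VTA dopaminergic neurons were both present in each library. All 16 genes of the SNpc list were expressed, and 17 of 19 genes (89.5%) of the VTA list, against 55.8% of all genes. Beside Aldh1a1 and Slc6a3, the SNpc list was led by Sncg, gamma-synuclein, at 551 ± 22 CPM per kb and Serpine2 at 121 ± 5.9 CPM per kb. The VTA list was led by Cck, then Calb2 at 122 ± 8.8 CPM per kb and Calb1 at 69.0 ± 3.5 CPM per kb, which encode calcium-binding proteins. Control 2 was the highest library for 14 of the 18 VTA-list genes whose mean reached 1 CPM and control 1 for none, whereas the SNpc list was highest in control 1 for 6, in control 2 for 7 and in control 3 for 3 of 16 genes. By class of exon length, control 2 was the highest for 22% to 31.6% of expressed genes and control 1 for 25% to 65.9%. The summed VTA list stood at 1016, 1184 and 1083 CPM. Which regions went into each library is not given, so region and library cannot be told apart.

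Markers of cells other than dopaminergic neurons were measured to check the cell label. These lists held 145 genes, of which 72 (49.7%) were expressed, below the share of all genes. Astrocyte and oligodendrocyte markers were the clearest, with 17 of 18 genes expressed in each list. The summed astrocyte markers stood at 658, 798 and 763 CPM, but Aldoc (223 ± 30 CPM), Slc1a2 (231 ± 21 CPM) and Glul (203 ± 21 CPM) carried most of that. Over members without overlapping exons the mean sum was 302 CPM, against 740 CPM over all. The more selective astrocyte genes Gfap (5.85, 7.85 and 6.47 CPM), Aqp4 (5.23, 5.68 and 4.01 CPM) and Aldh1l1 (0.945, 1.82 and 2.17 CPM) were low. Th exceeded Gfap 965- to 1198-fold per kb.

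The summed oligodendrocyte markers stood at 531, 530 and 459 CPM. Mbp, a myelin protein gene, stood at 90.2, 86.8 and 65.9 CPM, lowest in control 3. Mog, which is restricted to mature oligodendrocytes, stood at 5.32, 5.91 and 7.33 CPM. Precursor markers were lower, with a sum of 29.2 to 32.4 CPM (mean 30.3, or 14.7 over members without overlapping exons), Cspg4 at 3.90 CPM and Pdgfra at 1.87 CPM.

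Markers of microglia and vessels were close to the limit of expression. Of 18 microglia and macrophage genes 5 (27.8%) were expressed, against 55.8% of all genes. The sum of the list stood at 60.9, 61.6 and 62.1 CPM. Without members with overlapping exons the mean sum was 31.5 CPM. P2ry12 contributed 17.8 CPM, while the defining genes Cx3cr1, Aif1 and Tmem119 stood at 0.742, 0.518 and 0.419 CPM. Of 16 endothelial genes 3 (18.8%) were expressed, with Cldn5 at 0.187 CPM and Pecam1 at 0.199 CPM. Of 14 genes of pericytes, smooth muscle and fibroblasts 3 (21.4%) were expressed, with Pdgfrb at 0.361 CPM and Col1a1 at 0.142 CPM.

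Blood genes differed most between libraries. The list's sum stood at 32.6, 19.8 and 9.07 CPM, and all 4 of its genes whose mean reached 1 CPM were highest in control 1 and lowest in control 3. Control 1 was the highest for 25% to 65.9% of expressed genes by class of exon length, the most under 1000 bases. The share lowest in control 3 was not counted, and the part of exon length was not tested. The haemoglobin gene Hbb-b1 stood at 7.71, 5.10 and 1.88 CPM, and Hba-a2 at 9.89, 6.13 and 3.17 CPM. Near-identical haemoglobin genes share reads, so the split between them is uncertain. The T cell gene Cd3e had 0 counts in control 1 and the leukocyte gene Ptprc stood at 0.376 CPM or less. Of 10 ependyma and choroid plexus genes 3 were expressed, with the choroid plexus gene Ttr at 0.391 CPM.

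Neuronal lists of other types differed in level. Of 10 genes of GABA neurons 7 were expressed, with a sum of 200.2, 243 and 218 CPM, of which Gad2 made up most. Of 11 genes of excitatory neurons of the red nucleus, cortex and thalamus 3 were expressed, with Cbln1 at 25.5 CPM and Pou4f1 at 0.817 CPM. The sum of this list was 55.5, 55.5 and 50.6 CPM, below that of the microglia list in each library. The sums of the dopamine lists, at 6370 to 6750 CPM for synthesis and 11148 to 12668 CPM for storage, reuptake and breakdown, were above those of every other-cell list in each library. The data did not go against the cell label, and glial and other neuronal transcripts were also present. Their part in the levels of genes that glia and neurons share was not tested.

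**Figure D5:**
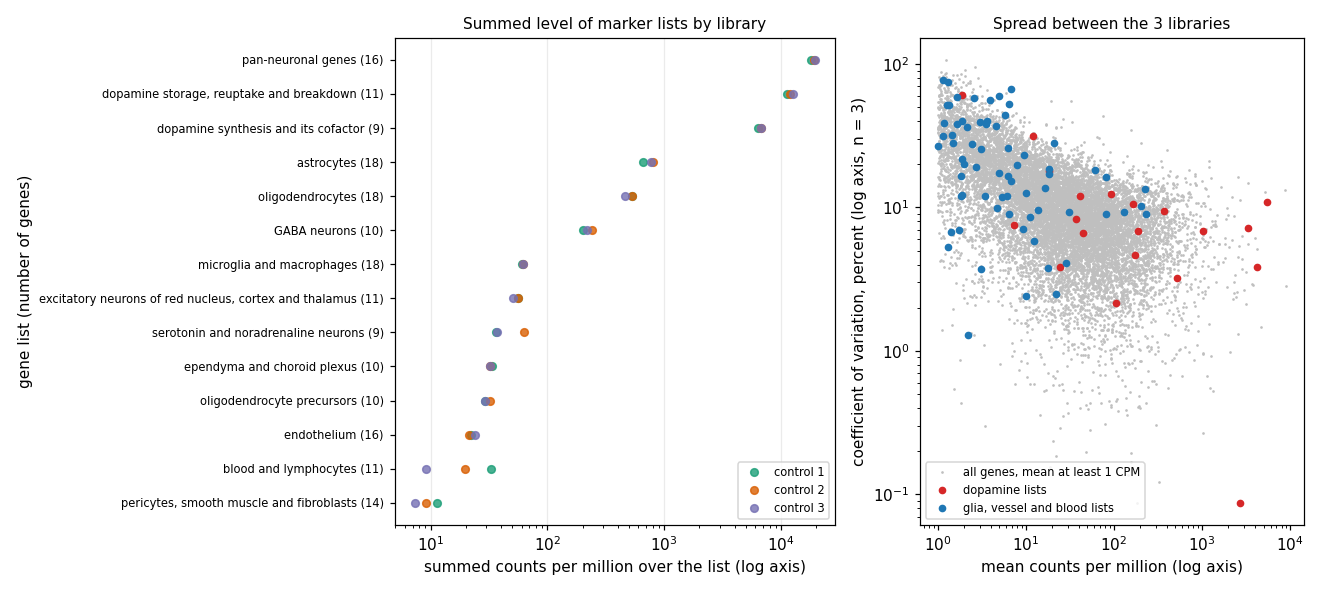
Left, summed CPM of each marker list by control library on a log axis, with the number of genes in brackets; right, coefficient of variation (SD over mean, n = 3, in percent) against mean CPM on log axes, for all genes whose mean reached 1 CPM (grey), the dopamine lists (red) and the glia, vessel and blood lists (blue). The dopamine lists lie above all other-cell lists in every library, and blood genes differ most, from 9.07 to 32.6 CPM in sum.

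The most abundant genes overall included genes of synapses and neurons beside genes of general cell function. Snap25, a protein of the vesicle fusion machinery, led by CPM at 8724, 9175 and 9151, and 4036 ± 114 CPM per kb. Vsnl1, a neuronal calcium sensor, and Cplx1, a fusion regulator, stood at 4245 and 3992 CPM, and Calm2, a calmodulin gene, at 2795 CPM per kb. All 16 pan-neuronal genes were expressed, among them Uchl1 at 1464 CPM per kb and Gap43 at 947 CPM per kb. Many genes near the top are not neuronal markers, among them Lars2, a mitochondrial tRNA synthetase, at 8361, 7890 and 10111 CPM, Zc3h7a at 4716 ± 69 CPM and Filip1l at 3731 ± 110 CPM. Whether all reads counted on Lars2, Zc3h7a and Filip1l came from their mRNA was not tested, so these levels are uncertain. The 20 genes highest by CPM held 8.38% of all counts, and 823 genes held 50% of them.

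Per length, the top place went to Bc1, a short neuronal noncoding RNA of 168 bases, at 13718 ± 346 CPM per kb. Snurf was next at 7283 CPM per kb, but its exons overlap Snrpn. The miRNA loci Mir3470a, Mir466n, Mir1195 and Mir3098 also ranked within the first 7 per length, at 3233 to 4179 CPM per kb. Their loci are 77 to 98 bases long, and counts on such loci are reads over the locus, not a measure of mature miRNA.

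Genes linked to inherited parkinsonism were all expressed, 19 of 19. Chchd2 stood at 1182 CPM per kb, Park7 at 255 CPM per kb and Pink1 at 77.7 CPM per kb. Among factors of axon survival, Nmnat2, which keeps axons alive, stood at 260, 281 and 272 CPM and Sarm1, which destroys them, at 44.8, 36.9 and 50.1 CPM. Nmnat2 exceeded Sarm1 6.48-, 8.52- and 6.06-fold per kb.

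Rpl10a, the gene of the ribosomal protein that bacTRAP lines carry in tagged form, stood at 434, 412 and 383 CPM. It held place 22 by CPM and place 36 by CPM per kb among 85 cytosolic ribosomal protein genes, whose median was 303 CPM. Whether a transgene contributed to it was not tested. Of the sex-linked genes, the Y-linked Ddx3y stood at 57.9, 68.3 and 65.2 CPM and Xist at 0.0235, 0.0123 and 0.0249 CPM. The Y-linked genes Eif2s3y, Uty and Kdm5d were also expressed in each library, and Xist was near the level of 3 counts.

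The 3 libraries agreed closely for most genes. Over the 13313 genes whose mean reached 1 CPM the median coefficient of variation was 0.0980, against a median of 0.0160 from counting alone. It was 0.191 for genes of 1 to 10 CPM, 0.0794 for genes of at least 10 CPM and 0.0536 for genes of at least 1000 CPM. The mean squared difference between libraries, per gene and in units of counting variance, was 58.5 to 117, far from the 1 that repeated counting of a single library would give. A range of 2-fold or more was seen in 600 genes, or 4.51%, and in 9 of the 9230 genes whose mean reached 10 CPM. Among the dopamine lists Gchfr was the only gene with such a range.

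Spread differed between the gene classes. The median coefficient of variation was 0.0996 for transmitter genes, 0.109 for channels, 0.111 for receptors, 0.146 for transcription factors and 0.186 for markers of other cells. A 2-fold range was seen in 22 of the 85 other-cell markers whose mean reached 1 CPM (25.9%), and in 20 of 170 transcription factors (11.8%), against 4.51% of all genes. Most markers of other cells were low, where all genes varied more.

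The widest ranges among genes of at least 10 CPM were in genes of varied roles. Ptgds, a prostaglandin synthase abundant in oligodendrocytes and meninges, stood at 99.96, 87.3 and 37.9 CPM. Myl12a (23.7, 53.5 and 20.7 CPM) and Tmem165 (12.6, 31.8 and 13.9 CPM) were high in control 2 only. Apod, a lipid carrier of glia and vessels, stood at 30.3, 21.6 and 14.4 CPM. Ptgds and Apod were lowest in control 3, as were the 4 blood genes whose mean reached 1 CPM. Of the 18 oligodendrocyte genes 9 were lowest in control 3, 4 in control 1 and 5 in control 2, and the share of all genes lowest in each library was not counted. Control 3 held 347 genes at least 1.5-fold below both other libraries, against 163 and 159 genes for controls 1 and 2.

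Some gene groups shifted together between libraries by small amounts. Of 83 ribosomal protein genes whose mean reached 1 CPM, 77 were highest in control 1 and 76 lowest in control 3, with median deviations from the gene's mean of 0.13 in control 1 and -0.14 in control 3 on the log2 scale. Of 16 pan-neuronal genes, 12 were lowest in control 1 and 12 highest in control 3. Exon length moved with these shifts. Of 744 expressed genes with exons under 1000 bases, 65.9% were highest in control 1 and 12.1% in control 3, whereas of 804 genes of at least 8000 bases 25% were highest in control 1 and 43.4% in control 3. The part of length in the shifts of these gene groups was not tested. They were small beside the differences between genes, since the median deviation of a length class lay between -0.11 and 0.09 on the log2 scale.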

How the data were processed

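The authors deposited raw read counts per gene, whole numbers in 1 table; reads were aligned with TopHat2 2.0.8 to mm10 per the submitters' processing notes, with the counting tool and annotation not given in the sources used here. Of its columns the 3 control libraries were used, and each count was scaled to a column total of 1000000 (CPM). Exon lengths came from GENCODE M21 (GRCm38) as merged exons of RefSeq-matched transcripts, found for 22638 of 23079 genes, 20946 by identifier and 1692 by symbol. Exons of 32.6% of expressed genes overlap another gene, and strand use in counting is not given. As 1 group was described, no test was run; the calculation of spread was tested on simulated data. Named are the dopamine lists, Satb1, up to 5 leading members and the defining members of 59 families and 30 lists, the 20 highest genes by CPM and per kb, the 10 widest ranges, Rpl10a and sex-linked genes. Members, lists and rules were chosen with earlier results of these data known. Intervals from 0 counts use 3 counts. Alternatives were edgeR 4.0.16 scaling factors (R 4.3.3), other limits of expression, other lengths and leaving out each library. Python 3.11.15, numpy 2.4.6 and pandas 2.3.3 were used. For 3 haemoglobin symbols no row was matched.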

Additional observations from a re-analysis of the deposited data

How the results depend on the processing

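The number of genes with a 2-fold range fell from 600 to between 270 and 293 when any 1 control library was left out, as fewer libraries give narrower ranges, and to 9 at a mean of at least 10 CPM. The number of expressed genes was 12877 with either edgeR scaling, 12976 to 13055 without 1 library, 13639 at 0.5 CPM, 10426 at 5 CPM and 16879 at 1 count, against 12871. The mean CPM of the 5 markers stayed within the spread of the libraries under both scalings. The leading member was the same in 69 of 89 families and lists without division by length, in 85 with the longest transcript, and in 85 to 87 without 1 library. Gria2 lost its lead in 3 of these settings, to Gria3 or Gria4, and Htr5a lost its lead to Htr2c without control 3. Oprk1 lost its lead to Oprm1 with the longest transcript. Restricted to genes without overlapping exons, the summed markers were 302 CPM for astrocytes (740 over all), 31.5 CPM for microglia (61.5), 14.7 CPM for oligodendrocyte precursors (30.3), 10.7 CPM for ependyma and choroid plexus (32.8) and 8.78 CPM for endothelium (22.4). No paired analysis was possible because the result comes from no test. At these depths 3 counts correspond to at most 0.0187 CPM, so the limits lie in the spread between libraries and not in counting.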
